A study of Mus musculus with 2 samples.

Results

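Satb1, Notch1, Ikzf1, Tcf3, Bcl11a, Dntt, Rag1 and Ccr9 are 8 of the 32285 genes counted in single cells of the mouse bone marrow LSK fraction. They were taken as genes that act in the specification of lymphoid cells. The LSK fraction is lineage-negative, positive for Sca-1 and high for Kit, and holds blood stem cells and early progenitors. It was sorted from femur and tibia marrow of young wild-type (WT) mice and of young mice labelled IκB– (IkBKO in the deposited cell table), and the labels name no treatment. Each of 2 replicate libraries held both genotypes, told apart by antibody tags, so that the counts form 4 pools. Which of the IκB genes these animals lack, in which cells, and how many mice went into each pool are not given in the sources used for this text. All p-values therefore rest on the spread between these 4 pools, which may be technical and was estimated for each gene partly from other genes. The 8 genes were followed over all 18029 cells that passed the deposited quality call and in 3 gates set on RNA. Cells with Mecom, a stem cell transcription factor, had at least 1 of its UMIs (distinct RNA molecules) and numbered 5319. Cells with Flt3, a cytokine receptor of multipotent progenitors, had at least 1 Flt3 UMI and no Dntt UMI and numbered 5117. Dntt-high cells had at least 3 Dntt UMIs and numbered 2501. A cell can fall in more than 1 gate.

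Multipotent progenitors become lymphoid step by step: chromatin regulators and transcription factors open lymphoid genes, signals such as Notch choose between the T and B routes, and the machinery that recombines antigen receptor genes is switched on early. Satb1 organises chromatin loops, Ikzf1 encodes Ikaros, Tcf3 encodes the E proteins E12 and E47 and Bcl11a encodes a zinc-finger repressor needed for B cells. Notch1 is the receptor that directs progenitors to the T lineage. Dntt encodes terminal transferase, which adds untemplated nucleotides at antigen receptor joins, and Rag1 encodes a subunit of the recombinase that cuts those genes. Ccr9 is the receptor for the thymic chemokine CCL25 and helps progenitors to reach the thymus.

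The stretches just before the start sites of Satb1, Dntt and Rag1 are shown because these genes behaved differently in the gates. No annotated exon of the 8 genes lies in them, and exons of other genes were not checked. Each holds 250 bases from RefSeq on GRCm38.p6 (mm10), read 5′ to 3′ on the strand of the gene, with E boxes (CANNTG, the element bound by E proteins) in capitals. All 8 genes had an entry. The Satb1 stretch is chr17:51833291-51833540 on the minus strand, that of Dntt is chr19:41029025-41029274 on the plus strand, and that of Rag1 is chr2:101649533-101649782 on the minus strand.
Satb1: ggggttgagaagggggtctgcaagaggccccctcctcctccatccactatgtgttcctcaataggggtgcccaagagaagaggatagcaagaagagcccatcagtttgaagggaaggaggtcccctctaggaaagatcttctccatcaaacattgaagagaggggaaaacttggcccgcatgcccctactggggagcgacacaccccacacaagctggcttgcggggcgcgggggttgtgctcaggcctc
Dntt: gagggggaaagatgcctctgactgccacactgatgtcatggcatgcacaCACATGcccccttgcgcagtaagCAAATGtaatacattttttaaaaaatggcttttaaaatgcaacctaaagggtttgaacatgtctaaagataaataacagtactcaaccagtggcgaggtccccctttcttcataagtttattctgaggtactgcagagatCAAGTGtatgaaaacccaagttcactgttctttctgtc
Rag1: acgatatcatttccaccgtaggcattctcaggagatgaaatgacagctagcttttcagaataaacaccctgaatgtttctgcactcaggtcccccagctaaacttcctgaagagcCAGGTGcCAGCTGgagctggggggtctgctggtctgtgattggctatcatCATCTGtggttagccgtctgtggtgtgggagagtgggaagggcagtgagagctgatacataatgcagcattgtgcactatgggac
The Dntt and Rag1 stretches each held 3 E boxes and that of Satb1 held 0. Satb1 had 5 start sites in RefSeq, of which only the most upstream was read, against 1 each for Dntt and Rag1. Of 32817 stretches of the same length in the table, 66.2% held at least 1. GC content was 58.0% for Satb1, 41.6% for Dntt and 50.8% for Rag1. A loose form of the κB element (GGGNNNNNCC, searched on both strands) matched once before Satb1 and not before Dntt or Rag1, against 45.8% of all stretches with a match. These matches describe letters and are no evidence of binding.

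Gene positions are those of the GENCODE annotation of mm10. Satb1 is at chr17:51736187-51833290 on the minus strand, Notch1 at chr2:26457903-26516663 (minus) and Rag1 at chr2:101638282-101649501 (minus). Ikzf1 is at chr11:11685003-11772926 (plus), Bcl11a at chr11:24078056-24174123 (plus) and Tcf3 at chr10:80409514-80433647 (minus). Dntt is at chr19:41029275-41059525 (plus) and Ccr9 at chr9:123678439-123784330 (plus). Apart from Tcf3 and Dntt, each span overlaps at least 1 other annotated gene, and the handling of such reads is not given in the labels.

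Replicate 1 held 3721 WT and 3962 IkBKO cells, and replicate 2 held 4963 and 5383. The pools held 42165571 to 62834572 UMIs. The median UMIs per cell were higher in IkBKO in both libraries (9963 in WT against 13709 in replicate 1, and 6983 against 9641 in replicate 2). The libraries shared 39 of the passing barcodes. Levels below are CPM, counts per 1e6 UMIs of the pool. The sorted identity was visible in Kit (199 and 272 CPM in WT, 118 and 194 in IkBKO) and Ly6a, which encodes Sca-1 (52.4 and 90.3 in WT, 89.7 and 117 in IkBKO). Other lineages were present too: summed neutrophil markers were at 1333 and 1154 CPM in the WT pools and at 166 and 198 CPM in the IkBKO pools. Monocyte and dendritic cell markers went the other way, at 298 and 248 CPM in WT and 997 and 1220 in IkBKO. Plasmacytoid dendritic, erythroid, mast and megakaryocyte cell markers were also higher in both IkBKO pools than in both WT pools. Those of T and NK cells and of the B lineage overlapped. Cells of other lineages (at least 20 UMIs of S100a8, S100a9, Camp and Ngp or of Cd74, at least 3 of T cell receptor genes, or at least 2 of Siglech, of Mcpt8 or of both Klf1 and Car1) numbered 276 and 128 in WT and 689 and 743 in IkBKO.

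Dntt-high cells were a smaller share of the passing LSK cells in IkBKO. They made up 20.1% (exact 95% binomial interval 18.8% to 21.4%) and 19.4% (18.3% to 20.5%) of the WT cells, and 6.66% (5.91% to 7.49%) and 9.79% (9.01% to 10.6%) of the IkBKO cells. The IkBKO share was 0.331 times the WT share in replicate 1 (95% interval 0.290 to 0.379) and 0.505 times in replicate 2 (0.457 to 0.558). Deeper cells pass a UMI threshold more easily and the IkBKO cells were the deeper ones, so each cell was also thinned to 4000 UMIs, which left out the shallower cells (80 and 359 in WT, 41 and 211 in IkBKO). The shares were then 13.2% and 14.1% in WT and 4.72% and 6.34% in IkBKO. The pools of the 2 genotypes did not overlap either way. A comparison of 2 pools with 2 cannot give an exact permutation p below 0.333, so no test is given for shares, and the intervals cover counting error only.

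Cells with Mecom made up 29.7% and 35.5% of WT and 18.6% and 31.8% of IkBKO cells, and after thinning 14.9% and 21.7% against 8.70% and 17.4%. The thinned ranges overlapped, and the IkBKO share was the lower in each library. Flt3 cells without Dntt made up 26.9% and 28.7% of WT and 29.1% and 28.6% of IkBKO cells. After thinning these were 18.8% and 23.0% in WT and 15.0% and 17.5% in IkBKO, so that at equal depth both IkBKO pools were below both WT pools. Thinning can bring cells with 1 to 2 Dntt UMIs into this gate. Such cells made up 13.8% and 13.3% of WT and 6.61% and 7.49% of IkBKO cells. Flt3, which sets the gate, was itself at 117 and 150 CPM over all WT cells, and 51.8 and 74.0 in IkBKO. The part of either in the thinned shares was not tested.

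**Figure D1:**
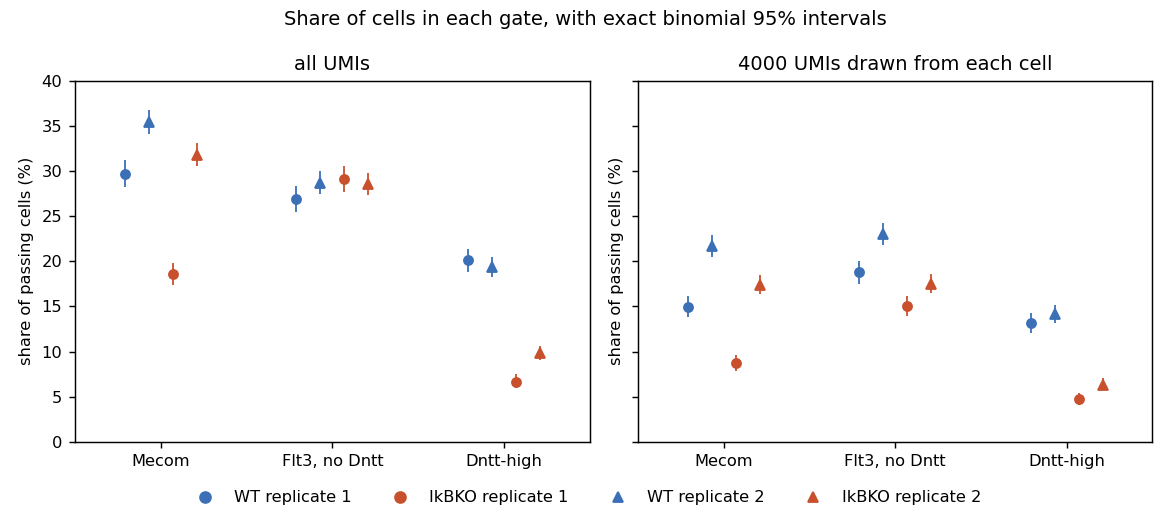
Share of passing LSK cells (percent, y axis) in each of the 3 RNA gates, with all UMIs and with every cell thinned to 4000 UMIs. Points are the 4 pools, with exact 95% binomial intervals. The IkBKO pools (6.66% and 9.79%) lie below the WT pools (20.1% and 19.4%) for Dntt-high cells.

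Over all LSK cells 4 of the 8 genes were lower in IkBKO and 0 higher (edgeR quasi-likelihood test with replicate as a block, adjusted p at most 0.05). Of all 14742 genes tested, 6.19% were called lower and 7.13% higher. At an unadjusted p under 0.05 there were 6 members, of which 0 were higher, beside 4865 of all genes. DESeq2 called 4 members lower and 0 higher, beside 601 and 963 of all genes. Among cells with Mecom, 4 of the 7 genes that passed the filter on low counts were lower and 0 higher (DESeq2: 3 lower and 0 higher), against 4.37% lower and 6.2% higher of all genes tested there. Among Flt3 cells without Dntt, 2 of 6 were lower and 0 higher (DESeq2: 1 and 0), against 8.98% and 10.9%. Among Dntt-high cells 1 of 7 was lower and 0 higher (DESeq2: 0 and 0), against 5.95% and 6.8%. The unadjusted p was under 0.05 for 2 of these 7, of which 1 (Rag1) was higher. That is near the share of all genes there (2873 of 11850). DESeq2 called 142 lower and 234 higher of all 12974 genes in cells with Mecom. It called 320 and 634 of 12945 in Flt3 cells, and 71 and 104 of 11850 in Dntt-high cells. The median log2 fold change of the members was −0.80 over all LSK cells, −0.63 in cells with Mecom, −0.17 in Flt3 cells and −0.06 in Dntt-high cells, while that of all genes tested was −0.01, 0.00, 0.00 and 0.00. In bulk sums such as those over all LSK cells, fewer cells of a type and less RNA per cell cannot be told apart.

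**Figure D2:**
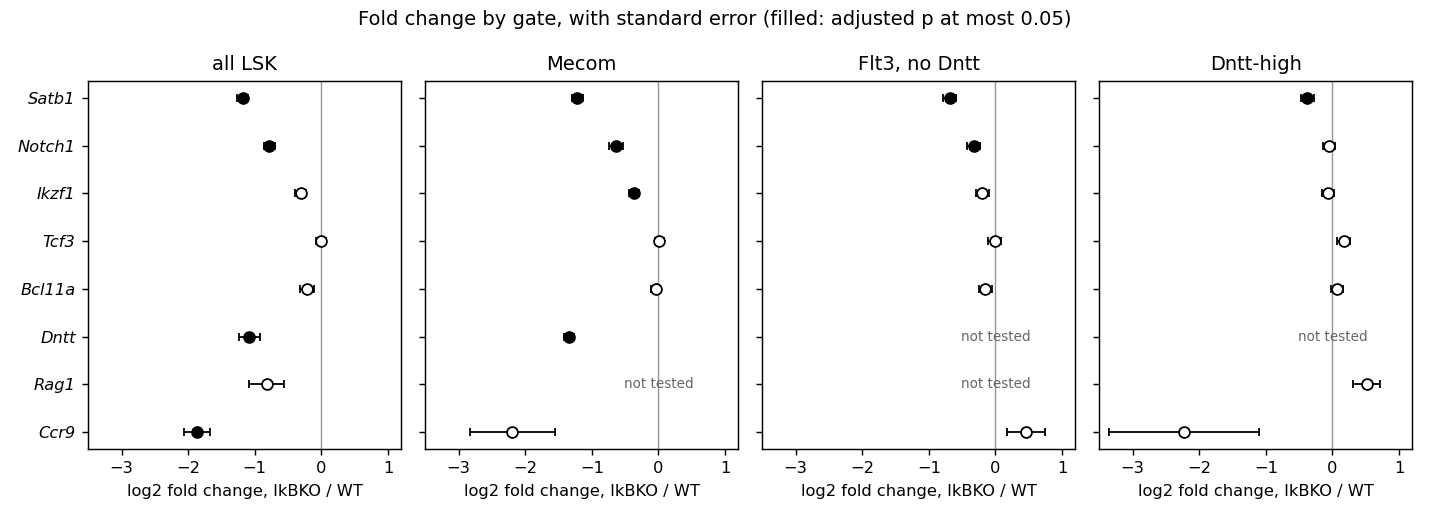
Log2 fold change of IkBKO over WT (x axis) for each gene in all LSK cells and in the 3 gates, with SE bars, where filled points passed the adjusted p of 0.05. Satb1 is filled in all 4 sets, from −1.22 in cells with Mecom to −0.38 in Dntt-high cells.

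Satb1, the chromatin organiser, was lower in IkBKO in all 4 sets of cells. Over all LSK cells it stood at 112 and 140 CPM in WT pools and at 42.7 and 62.9 in IkBKO pools, a log2 fold change of −1.18 ± 0.08 (SE, n = 2 pools a genotype, edgeR adjusted p = 0.0020). Cells with Mecom had it at 99.5 and 105 CPM in WT pools and at 37.5 and 47.9 in IkBKO pools (−1.22 ± 0.08, edgeR adjusted p = 9.3e-06). The WT pools lay above the IkBKO pools in each case. Flt3 cells without Dntt had 93.0 and 105 CPM in WT pools and 51.0 and 64.5 in IkBKO pools (−0.69 ± 0.10, edgeR adjusted p = 2.7e-04). Dntt-high cells had 249 and 280 CPM in WT pools and 197 and 191 in IkBKO pools (−0.38 ± 0.09, edgeR adjusted p = 0.0017). The last difference had a DESeq2 adjusted p of 0.19, and over its 14 alternatives it was called in 7, with a log2 fold change of −0.58 to −0.34 and adjusted p of 2.1e-18 to 0.55. The call in cells with Mecom was kept in all 13 alternatives (−1.35 to −1.11, adjusted p at most 0.026), that over all LSK cells in 9 of 13 (adjusted p up to 0.43) and that in Flt3 cells in 8 of 13 (up to 0.80).

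With all UMIs the Satb1 level was higher with each step in the number of Dntt UMIs of a cell, in every pool, and the IkBKO pools were the lower ones at each step. In cells with no Dntt UMI it was 64.2 and 75.9 CPM in WT against 30.2 and 39.3 CPM in IkBKO, and in cells with 1 to 2 it was 138 and 188 against 69.4 and 105. Just above the gate threshold, with 3 to 9 UMIs, it was 222 and 256 CPM against 156 and 157, and with 10 to 29 it was 268 and 303 against 210 and 208. Cells with 30 or more had 295 and 328 CPM in WT and 230 and 232 in IkBKO. The genotypes were apart in 5 of 5 steps, and in 4 of 4 when cells were thinned to 4000 UMIs before they were binned. The thinned values were 77.1 and 91.3 CPM in WT against 35.8 and 46.1 in cells without Dntt, and 342 and 393 against 212 and 320 in the highest step, with 10 or more Dntt UMIs. At equal depth the level of IkBKO replicate 1 was not higher at that last step (222 CPM with 3 to 9 Dntt UMIs, 212 CPM above), with Poisson intervals that overlapped. With cells carrying any Dntt UMI left out altogether, an alternative chosen after the data were seen, Satb1 fell by 0.93 on the log2 scale (edgeR adjusted p = 4.2e-04).

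Mecom cells without Dntt and Flt3, which share no cell with the other gates, had 43.1 and 38.1 CPM of Satb1 in WT and 18.4 and 22.0 CPM in IkBKO. Whether the genotype effect differs was tested directly between these cells, the Dntt-high cells, and the cells with Flt3 but neither Dntt nor Mecom, which share no cell. The point estimate for Satb1 was a weaker effect in Dntt-high cells than in the Mecom class, by 0.57 ± 0.15 on the log2 scale (unadjusted p = 0.0012), with an edgeR adjusted p of 0.30 and of 0.73 to 1.0 over its 2 alternatives, so the difference did not pass. The 0 of 7 members called for this difference, and the 0 of 7 called for the Flt3 class against the Mecom class, stand beside 0.0707% and 0.354% of all 12725 genes. At an unadjusted p under 0.05 there were 1 and 0 members by edgeR and 1 and 0 by DESeq2, which also called 0 in each. Of all 12725 genes, 666 and 1097 were under it by edgeR and 134 and 283 by DESeq2. DESeq2 called 3 higher and 2 lower of all genes in the first comparison, and 15 and 7 in the second.

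A class of cells that should lack Satb1 gave its background. Erythroid-primed cells with at least 2 UMIs of Klf1 and of Car1 had 6.22 CPM in WT replicate 1, and 3.63 and 5.10 CPM in IkBKO. WT replicate 2 had 34.7 CPM there, which rests on 6 UMIs in 7 cells. Apart from that pool, these levels are far under those of the gates.

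**Figure D3:**
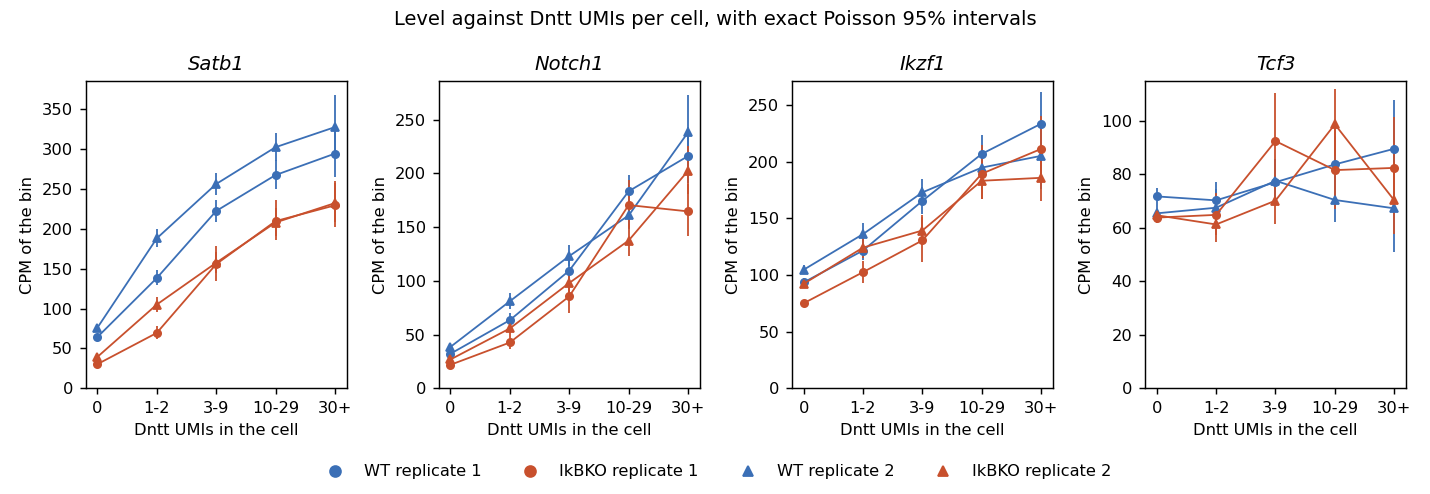
CPM of member genes (Satb1, Notch1, Ikzf1 and Tcf3, y axis from 0) by the number of Dntt UMIs in the cell (x axis), with a line for each of the 4 pools and exact 95% Poisson intervals. Satb1 of both IkBKO pools runs below both WT pools in 5 of 5 steps, Notch1 in 4, Ikzf1 in 3 and Tcf3 in 2.

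Ikzf1, which encodes Ikaros, was lower in IkBKO in cells with Mecom, where it stood at 113 and 124 CPM in WT pools and at 83.4 and 95.6 in IkBKO pools (−0.37 ± 0.07, edgeR adjusted p = 0.0076, and 0.063 by DESeq2). It was called in 6 of 13 alternatives there (adjusted p 2.2e-05 to 1.0). In all LSK cells the pools were at 117 and 128 CPM against 82.8 and 103 CPM (−0.31 ± 0.08), and the adjusted p of 0.057 missed the threshold. The pools did not overlap in either set. Flt3 cells had 107 and 120 CPM against 81.8 and 105 (−0.19, adjusted p = 0.19), which overlapped. In Dntt-high cells they were at 190 and 184 CPM in WT and at 175 and 164 in IkBKO (−0.07, edgeR adjusted p = 0.73). Mecom cells without Dntt and Flt3 had 82.8 and 90.0 CPM of Ikzf1 in WT, and 72.3 and 81.2 in IkBKO. The log2 ratios there were −0.19 and −0.15.

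Bcl11a, the zinc-finger repressor, did not pass the test in any of the 4 sets. Over all LSK cells it stood at 187 and 257 CPM in WT pools and at 134 and 234 in IkBKO pools (−0.22 ± 0.10, edgeR adjusted p = 0.19), with replicate 2 above replicate 1 in each genotype and the genotypes overlapping. The values were 219 and 262 CPM against 202 and 254 in cells with Mecom (−0.04, adjusted p = 0.76), and in Dntt-high cells 262 and 308 against 282 and 284 (0.07, adjusted p = 0.74). Flt3 cells had 175 and 247 CPM against 135 and 226 (−0.15, adjusted p = 0.32). Among its alternatives it was called only in Flt3 cells scaled to total UMIs.

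Tcf3, the E protein gene, had the smallest log2 fold change of the 8 genes over all LSK cells, but not in Dntt-high cells. Its levels in all LSK cells were 73.4 and 67.6 CPM in WT pools and 65.1 and 66.2 in IkBKO pools (−0.01 ± 0.07, edgeR adjusted p = 0.93). Cells with Mecom had 73.6 and 66.8 CPM against 71.1 and 66.8 (0.02, adjusted p = 0.93), and Flt3 cells 72.6 and 66.4 against 66.2 and 62.9 (−0.01, adjusted p = 0.96). Dntt-high cells had 81.2 and 73.9 CPM against 85.6 and 79.8 (0.17, adjusted p = 0.28). It was called in none of the alternatives of any gate, although a p that misses the threshold does not show equal levels. From cells without Dntt to cells with 30 or more UMIs of it, Tcf3 moved from 71.7 to 89.5 CPM in WT replicate 1 and from 65.3 to 67.2 in WT replicate 2, a far flatter course than that of Satb1.

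Notch1, the receptor gene, was lower in IkBKO over all LSK cells, in cells with Mecom and in Flt3 cells, and was not called in Dntt-high cells. Over all LSK cells it stood at 60.7 and 70.1 CPM in WT pools and at 30.2 and 42.0 in IkBKO pools (−0.78 ± 0.08, edgeR adjusted p = 0.0063). Cells with Mecom had 49.7 and 51.1 CPM against 25.8 and 37.1 CPM (−0.63 ± 0.11, adjusted p = 0.0046), and Flt3 cells 45.2 and 48.2 against 31.2 and 38.7 (−0.33 ± 0.10, adjusted p = 0.035). Dntt-high cells had 152 and 147 CPM in WT pools and 139 and 134 in IkBKO pools (−0.06, adjusted p = 0.78). The IkBKO pools were the lower ones in all 4 sets, and the effect in Dntt-high cells was not called different from that in the Mecom class. Mecom cells without Dntt and Flt3 had 25.1 and 27.4 CPM of Notch1 in WT, and 17.1 and 25.4 in IkBKO. These pools overlapped, and the log2 ratios were −0.56 in replicate 1 and −0.11 in replicate 2. The Notch1 calls were kept in 8 of 13 alternatives over all LSK cells, in 7 of 13 in cells with Mecom and in 6 of 13 in Flt3 cells, with adjusted p of 6.0e-07 to 0.88, 1.0e-09 to 0.55 and 0.0068 to 1.0. Without any cell carrying Dntt, it still fell by 0.45 on the log2 scale (edgeR adjusted p = 0.017). Notch1 was also higher in cells with more Dntt, from 32.1 and 38.5 CPM in WT and 21.8 and 26.8 in IkBKO cells without Dntt to 216 and 238 and to 165 and 202 in cells with the most Dntt.

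**Figure D4:**
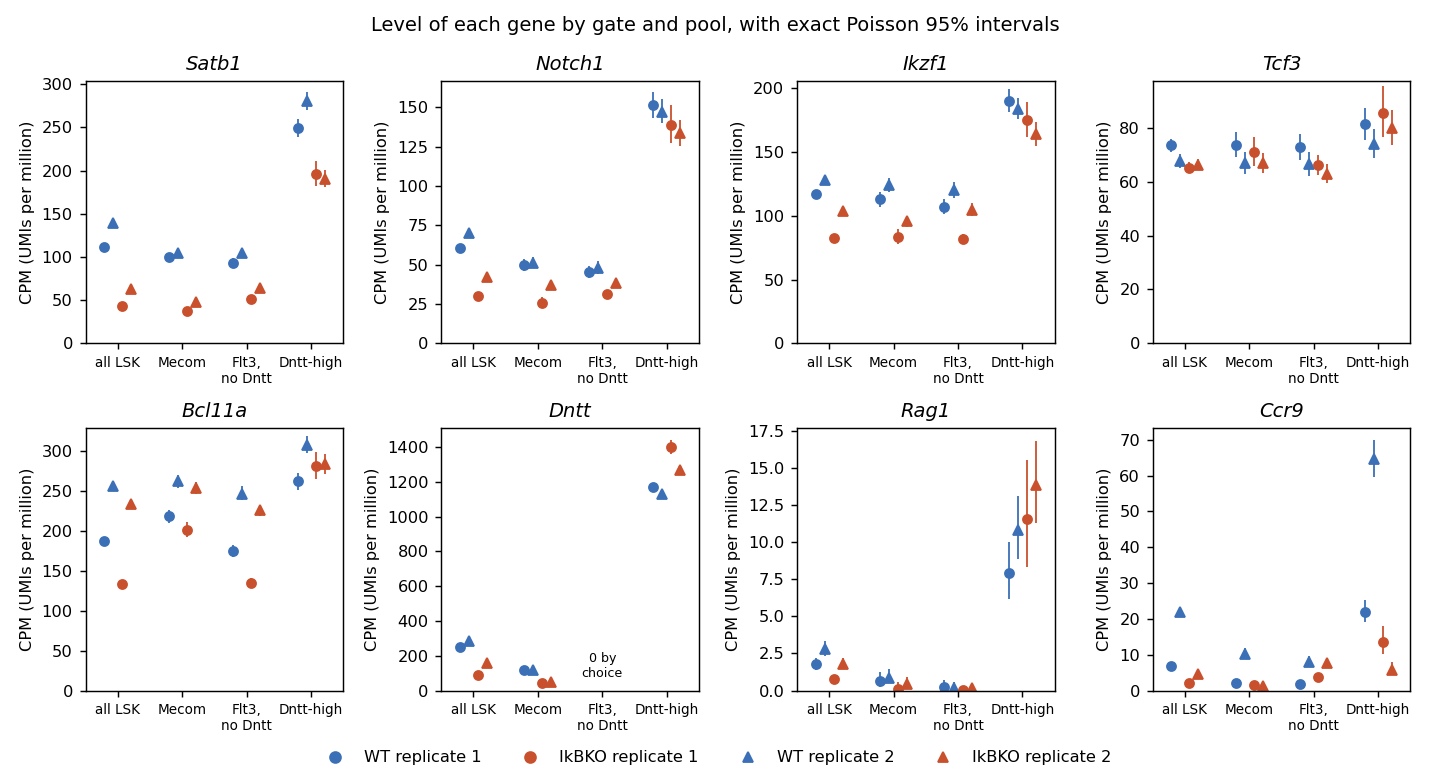
CPM (y axis, from 0, with its own range for each gene) of the 8 genes in all LSK cells and each gate, with a point and an exact 95% Poisson interval for each of the 4 pools. For Satb1 the WT points (112 and 140 CPM over all LSK cells) lie above the IkBKO points (42.7 and 62.9) in every set, while Tcf3 points of both genotypes lie close together.

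Dntt, the terminal transferase gene, was lower over all LSK cells, at 253 and 284 CPM in WT pools and at 88.2 and 160 in IkBKO pools (−1.08 ± 0.16, edgeR adjusted p = 0.023). This call was kept in 7 of 12 alternatives, with adjusted p of 8.1e-13 to 0.82. In cells with Mecom, which the gate did not choose by Dntt, the difference was sharper, with 120 and 118 CPM in WT against 45.0 and 46.2 CPM in IkBKO (−1.34 ± 0.07, edgeR adjusted p = 2.0e-06). It was called there in all 13 alternatives (−1.65 to −1.29). Both pools of each genotype lay close together and the genotypes were apart. Of these cells 24.7% and 21.9% had a Dntt UMI in WT, and 10.6% and 10.9% in IkBKO, at medians of 9992 and 7286 and of 11086 and 9404 UMIs per cell. Erythroid-primed cells, which should lack Dntt, had it in 2 of 35 and 1 of 7 cells in WT (5.71% and 14.3%) and in 1 of 112 and 7 of 134 in IkBKO (0.893% and 5.22%), at higher medians of 16602 to 23823 UMIs per cell. The exact interval of WT replicate 2 (0.361% to 57.9%) gives no background for that pool. The part of free RNA in the Dntt difference was not tested.

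Dntt set the Dntt-high gate, so its level inside is a description only. It was 1169 and 1129 CPM in WT pools and 1401 and 1266 in IkBKO pools. Cells with 10 or more Dntt UMIs made up 50.5% and 42.1% of the gate in WT and 63.3% and 55.6% in IkBKO. Thinned to equal depth these shares were 26.7% and 19.7% against 31.9% and 31.7%. Both IkBKO pools were above both WT pools in each of these measures.

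Rag1, the recombinase gene, was rare, with 77 and 118 UMIs in the WT pools and 47 and 111 in the IkBKO pools. Its levels over all LSK cells were 1.76 and 2.80 CPM in WT pools and 0.748 and 1.81 in IkBKO pools, which overlapped (−0.82 ± 0.26, edgeR adjusted p = 0.091). Nearly all of it was in Dntt-high cells, which held 90.9% and 90.7% of its UMIs in WT and 91.5% and 91.9% in IkBKO. Inside that gate the level was 7.90 and 10.8 CPM in WT pools and 11.5 and 13.9 in IkBKO pools (0.51 ± 0.20, adjusted p = 0.076). The IkBKO pools were the higher ones there, but the difference missed the threshold and was called in none of its alternatives. Among Mecom cells only 8 and 14 UMIs in WT and 1 and 9 in IkBKO were counted, and among Flt3 cells 3 and 2 in WT and 1 and 3 in IkBKO, so Rag1 did not pass the filter on low counts in either.

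Ccr9, the thymus-homing receptor gene, was lower over all LSK cells, at 6.80 and 21.8 CPM in WT pools and at 2.20 and 4.65 in IkBKO pools (−1.87 ± 0.19, edgeR adjusted p = 0.0068). WT replicate 2 had the highest level by far. The call was kept in 7 of 13 alternatives, with log2 fold changes of −4.0 to 0.16 and adjusted p of 1.6e-09 to 1.0, and the direction turned to 0.16 without cells with Dntt. Cells with Mecom had 2.04 and 10.3 CPM in WT and 1.58 and 1.19 in IkBKO (−2.19 ± 0.64, adjusted p = 0.12). In Dntt-high cells the levels were 22.0 and 64.6 CPM in WT pools and 13.7 and 5.84 in IkBKO pools (−2.23 ± 1.13, adjusted p = 0.54), so the genotypes did not overlap but the libraries disagreed on the size, with log2 ratios of −0.69 in replicate 1 and −3.47 in replicate 2. In Flt3 cells without Dntt the levels were 1.75 and 7.95 CPM in WT pools and 3.83 and 7.65 in IkBKO pools (0.46 ± 0.28, adjusted p = 0.29), which overlapped.

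Ccr9 came from different cells in the genotypes. Dntt-high cells held 65.7% and 69.2% of its UMIs in WT but 37.0% and 15.1% in IkBKO. Cells with Flt3 but neither Dntt nor Mecom held 6.06% and 7.38% in WT and 50% and 45.3% in IkBKO. Ccr9 is also a gene of plasmacytoid dendritic cells, and cells with at least 2 UMIs of Siglech, a marker of those cells, numbered 34 and 7 in WT and 39 and 162 in IkBKO. They held 24.2% and 2.06% of the Ccr9 UMIs in WT and 22.5% and 54.0% in IkBKO. With the cells of other lineages left out, 198 and 844 Ccr9 UMIs remained in WT and 28 and 39 in IkBKO, and the gene was lower in all 4 sets: −4.0 over all LSK cells, −4.60 in cells with Mecom, −3.67 in Flt3 cells and −3.05 in Dntt-high cells (edgeR adjusted p = 0.0039, 8.7e-15, 0.0039 and 0.039). Over all alternatives the adjusted p reached 1.0, 1.0, 1.0 and 0.89.

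**Figure D5:**
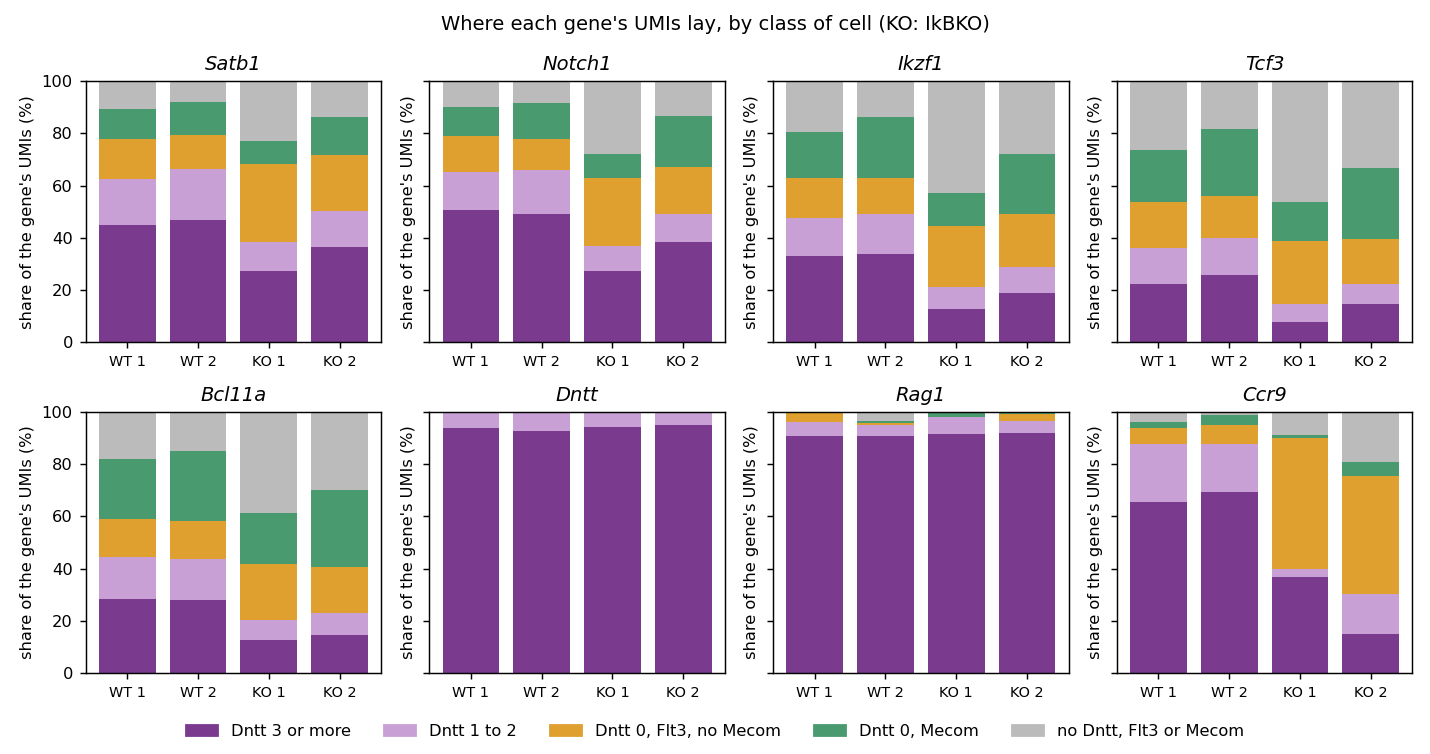
Share of each gene's UMIs (percent, y axis) that lies in 5 classes of cells sharing no cell, for the 4 pools. Dntt-high cells hold 90.7% to 91.9% of Rag1 in every pool, while for Ccr9 their share drops from 65.7% and 69.2% in WT to 37.0% and 15.1% in IkBKO.

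The other members were spread more widely. Dntt-high cells held 20.3% and 23.4% of all UMIs of the WT pools and 5.93% and 12% of the IkBKO pools. They held 45.1% and 46.9% of Satb1 in WT and 27.3% and 36.4% in IkBKO, and 50.6% and 49.2% of Notch1 against 27.3% and 38.2%. For Ikzf1 the shares were 33.0% and 33.7% against 12.5% and 19.0%, for Bcl11a 28.4% and 28.1% against 12.5% and 14.6%, and for Tcf3 22.4% and 25.6% against 7.80% and 14.5%. In each pool the Satb1, Notch1, Ikzf1 and Bcl11a shares were above the share of all UMIs, and that of Tcf3 was near it.

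The Dntt-high cells carried other markers as well, and these differed with genotype. Summed plasmacytoid markers (Siglech, Bst2, Tcf4, Irf8, Ly6d and Ccr9 itself) stood at 725 and 723 CPM in WT and 1253 and 1209 in IkBKO. Most of that difference was Ly6d (61.0 and 70.2 against 544 and 477 CPM), while Siglech was at 7.23 and 3.14 against 10.5 and 19.0 and Tcf4 at 283 and 317 against 297 and 284. Summed B lineage markers stood at 114 and 167 CPM against 273 and 341, and monocyte and dendritic cell markers at 176 and 218 against 835 and 454. T and NK cell markers were at 118 and 144 CPM against 122 and 121, with Cd8a at 0 in all pools and Ms4a1 at 0 in both IkBKO pools. Neutrophil markers followed the library (50.6 and 448 against 43.2 and 411). Erythroid markers ranged from 24.7 to 74.9 CPM, mast cell markers from 13.2 to 22.7 and megakaryocyte markers from 10.7 to 70.7. Kit stood at 146 and 187 CPM in WT, and 90.1 and 97.3 in IkBKO, while Ly6a was at 55.5 and 63.0 against 324 and 117. In cells with Mecom the summed stem cell markers were 617 and 993 CPM in WT and 382 and 659 in IkBKO. Monocyte and dendritic cell markers in Flt3 cells were at 509 and 292 against 1780 and 2545. The part of these in the member differences was not tested. With cells of other lineages left out, Satb1 was still called in all 4 sets. Those cells were not chosen by Ly6d or by B lineage or stem cell genes, so this is no test of those markers. Of the IkBKO Dntt-high cells it kept 231 of 264 in replicate 1 and 475 of 527 in replicate 2.

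Partner genes of the members moved in both directions. Of all genes tested, 6.19% were called lower and 7.13% higher over all LSK cells, and 4.37% and 6.2% in cells with Mecom. In Flt3 cells these shares were 8.98% and 10.9%, and in Dntt-high cells 5.95% and 6.8%. An unadjusted edgeR p under 0.05 was met by 4865 of 14742 genes over all LSK cells. In cells with Mecom 3172 of 12974 met it, and in Dntt-high cells 2873 of 11850. Over all LSK cells the median log2 fold change was −0.22 for E proteins and inhibitors, −0.12 for the Ikaros family, −0.07 for the Notch pathway, −0.28 for end joining, −0.40 for receptors and −0.29 for transcription factors, beside −0.01 for all genes. In Dntt-high cells these medians were 0.03, −0.25, −0.03, 0.11, −0.13 and 0.00, beside 0.00. Among 5 E proteins and their inhibitors, Id1, an inhibitor of E proteins, was higher over all LSK cells (3.87 and 1.94 CPM in WT, 14.1 and 5.61 in IkBKO), and it alone was called. It rose by 2.21 on the log2 scale in cells with Mecom and by 2.68 in Flt3 cells, where the inhibitor Id2 rose by 0.79 as well. In Dntt-high cells Id3 was called higher (1.02) and Id2 lower (−0.59), neither by DESeq2. Of the 4 other Ikaros family genes tested over all LSK cells, 0 were called (1 at an unadjusted p under 0.05, 0 by DESeq2), and in Dntt-high cells 1 of 2 was, Ikzf2 (−0.39, not by DESeq2).

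Of 14 further Notch pathway genes tested over all LSK cells, 2 were higher and 2 lower, whereas DESeq2 called 0 higher and 1 lower, Mfng. Mfng, which encodes a Fringe enzyme that modifies Notch receptors, stood at 52.5 and 61.0 CPM in WT, and 32.0 and 41.0 in IkBKO (−0.55), and Dtx4 was higher (0.72). Among Mecom cells 0 of 13 were called (3 at an unadjusted p under 0.05, 0 by DESeq2), in Flt3 cells 2 were higher and 1 lower (DESeq2: 0 and 0), and in Dntt-high cells only Dtx4 was higher (0.69, not called by DESeq2). Of 8 genes of recombination and end joining, the Ku subunit genes Xrcc5 (−0.47) and Xrcc6 (−0.31) were lower over all LSK cells. Xrcc5 was lower in Flt3 cells too (−0.69). DESeq2 called none of these 3, with adjusted p of 0.097, 0.14 and 0.095. In cells with Mecom and in Dntt-high cells 0 of 8 were called (3 and 2 at an unadjusted p under 0.05, 0 by DESeq2).

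Of 11 lymphoid receptor and surface genes, 4 were lower over all LSK cells and 0 higher: Flt3 (−1.01), Lax1 (−1.22), Cd27 (−0.57) and Ccr7 (−0.98, adjusted p = 0.18 by DESeq2). Flt3, the receptor of the progenitor cytokine FLT3 ligand, stood at 117 and 150 CPM in WT and 51.8 and 74.0 in IkBKO. In Dntt-high cells 3 were higher and 3 lower. Ly6d, a surface marker of progenitors turning to the B lineage that plasmacytoid cells also carry, rose from 61.0 and 70.2 CPM in WT pools to 544 and 477 in IkBKO pools (3.03 ± 0.10, edgeR adjusted p = 7.3e-63), and was the 1 list gene that DESeq2 called there. Il7r, the receptor of the lymphoid cytokine IL-7, was at 55.5 and 87.9 CPM against 86.9 and 105 (0.51), which overlapped between genotypes across libraries. S1pr1, the receptor that guides egress, fell by 1.94 on the log2 scale, from 34 and 52 UMIs in WT to 3 and 10 in IkBKO. Cells with Mecom had 2 of these genes higher and 3 lower (DESeq2: 1 and 1), and Flt3 cells 3 and 3 (DESeq2: 2 and 2).

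Of 16 lymphoid and priming transcription factors, 1 was lower over all LSK cells, the stem cell factor Erg (−0.49), and 0 were higher. That is near the 6.19% of all genes called lower there. DESeq2 called 2 lower, Erg and Mef2c (−0.34), and 1 higher, Spi1 (0.38). In Flt3 cells 2 of 12 were higher, Spi1 (0.59, DESeq2 adjusted p = 7.9e-05) and Tcf7 (1.30, 0.31 by DESeq2). Erg was lower there (−0.50, 0.023 by DESeq2). In Dntt-high cells Pax5 (1.41) and Lef1 (1.5), factors of the B lineage and of lymphoid Wnt signalling, were called higher and Tcf7 (−0.68), a T lineage factor, lower. Pax5 rested on 21 and 32 UMIs in WT and 23 and 59 in IkBKO, and DESeq2 called none of the 3. Tcf7 in cells with Mecom was higher (1.99) on 12 and 13 UMIs in WT and 33 and 64 in IkBKO, with a DESeq2 adjusted p of 0.13.

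The genes with the most similar course were found over 20 points, the 4 pools in 5 classes sharing no cell, among 8133 genes with a mean of at least 10 CPM. Pearson correlations of log2(CPM + 1) are given as a description, since points of a pool share its library. Closest to Satb1 were Notch1 (0.967), Xpc (0.967) and Mgat1 (0.966), and closest to Notch1 were Xpc (0.979), Il12a (0.977) and Cd33 (0.974). Ikzf1 ran with Il12a (0.980), Cd33 (0.972) and Notch1 (0.970). Dntt was nearest to Tmem108 (0.926), Cmah (0.918) and Cd33 (0.903), and Rag1 to Ctr9 (0.965), Cmah (0.960) and Ebf1 (0.957), the B lineage factor. Ccr9 was nearest to Akna (0.921), Pip4k2a (0.908) and Net1 (0.897). For Bcl11a the nearest were Sept1, Cep97 and Tia1 (0.949 each), and for Tcf3 the values were lowest, with Xrcc6 at 0.840, Ptp4a3 at 0.839 and Bcl7a at 0.817.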

How the data were processed

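Deposited matrices hold raw UMI counts per gene and barcode, per the file headers, which give Cell Ranger 6.0.0. Per the submitters' processing notes the tools were Cell Ranger 7.0 and Seurat 4.3.0 on the mm10 build. Libraries were made with a 3′ kit, per the labels' protocols. Quality calls and genotypes of barcodes came from the deposited cell table (18029 of 9322 + 24787 barcodes passed), by rules not given in the sources used here. No doublet call was added.

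Counts were summed per library and genotype in each gate and tested with edgeR 4.0.16 (R 4.3.3; TMM, filterByExpr, robust quasi-likelihood F test, two-sided) with library as a block, because both genotypes of a number shared 1 library. Deviations from genotype means of same-numbered pools correlated at 0.565 over 14696 genes. Each gate's fit had 1 residual degree of freedom, so the spread of a gene was estimated partly from the other genes. Very small adjusted p-values rest on that shared estimate as well. The SE given is the absolute log2 fold change divided by the square root of the F value, not a spread measured between pools. Benjamini-Hochberg adjustment ran over all genes tested, and an adjusted p of at most 0.05 was called. Genes that define a gate were not tested in it. DESeq2 1.42.0 was an alternative. The difference between gates was an interaction term in 1 fit over 12 pools of 3 classes sharing no cell, which come from the same mice and libraries. Steps were tested on simulated counts.

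By rule all 8 members were named in each gate, except Dntt in Flt3 cells, where it is 0 by choice, with up to 6 called genes per partner list by smallest p and the 3 most correlated genes per member. Members, gates and lists were chosen with earlier results of these data known. Alternatives leaving out cells with Siglech or Dntt, and thinned Dntt steps, were chosen after seeing the data. Others covered normalization, filters, thresholds, thinning, other-lineage cells and single pools left out. Gene spans came from GENCODE, start-site sequences from RefSeq.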

Additional observations from a re-analysis of the deposited data

Results flagged for a closer look

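In 2 genes the IkBKO pools lay above WT in one class of cells and below it in another that shares no cell with it, in both libraries. The difference between the classes was not tested.

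Tcf3 had log2 ratios of IkBKO over WT of 0.0757 in replicate 1 and 0.11 in replicate 2 among Dntt-high cells, and of −0.19 and −0.22 among cells with Flt3 but neither Dntt nor Mecom. Ccr9 had ratios of −0.69 and −3.47 among Dntt-high cells, and of 0.936 and 0.0776 among cells with Flt3 but neither Dntt nor Mecom. The last value is close to 0. Most Ccr9 UMIs of IkBKO replicate 2 (54.0%) lay in cells with Siglech.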

How the results depend on the processing

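Counts of members called lower moved by over 1.5 times as follows, except without WT replicate 1 in cells with Mecom and in Dntt-high cells. Under the other alternatives they were 3 to 5 over all LSK cells (3 without cells with Siglech, 5 after thinning and with no filter on low counts), 3 to 5 in cells with Mecom (5 without other-lineage cells and with no filter), 2 in Flt3 cells and 1 in Dntt-high cells. Over all LSK cells the 4 became 0 without the replicate block, 2 without cells with Dntt (fewer members tested) and, with 1 pool left out, 0 (WT replicate 2 or IkBKO replicate 1), 1 (WT replicate 1) or 2 (IkBKO replicate 2). Without the block edgeR called 0 genes of any kind there (1410 at an unadjusted p under 0.05). In cells with Mecom the 4 became 2 without the block, 2 after thinning to 4000 UMIs, 3 without WT replicate 1 and 2 without any other pool. In Flt3 cells the 2 became 1 by DESeq2, 0 without the block, 4 with total UMIs and 0 with any pool left out. In Dntt-high cells the 1 became 0 by DESeq2, 0 without the block, 0 at a threshold of 10 Dntt UMIs, 2 at a threshold of 1, 2 after thinning, 2 without other-lineage cells and, with a pool left out, 1 (WT replicate 1) or 0 (any other). Fits with a pool left out had no block, and assume that a lone pool varies like the others.

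Ccr9 changed sign, from −1.87 to 0.16, over all LSK cells without cells with Dntt, and from 0.46 to −3.67 in Flt3 cells without other-lineage cells. After thinning to 4000 and 2500 UMIs the share ratio of cells with Mecom was 0.582 and 0.552 in replicate 1 (0.627 unthinned) and 0.803 and 0.778 in replicate 2 (0.897). For Flt3 cells it was 0.798 and 0.707 (1.08), and 0.762 and 0.737 (0.994). For Dntt-high cells it was 0.358 and 0.389 (0.331), and 0.449 and 0.492 (0.505). The cause was not tested.

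Total UMIs shifted the median log2 fold change of all genes to −0.10 over all LSK cells, and 958 genes were higher and 1659 lower against 1051 and 913. In Flt3 cells the split was 1000 and 1738 against 1411 and 1162, and in Dntt-high cells 344 and 614 against 806 and 705. Of 451 values of single genes under an alternative, 51 lost the call and 368 were counted as unchanged. That count includes changes of sign where neither value was called. Values from a single library, which have no p, were counted as unchanged when they lay within the SE of the main value. Rag1 (47 to 118 UMIs a pool) and Ccr9 in IkBKO (138 and 285 UMIs) rest on few counts.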

Other observations

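Surface antibody tags were read in replicate 1 alone. The Flt3 tag had a median of 126 counts in WT and 121 in IkBKO cells, 129 and 124.5 in Dntt-high cells, and 126 and 124 in cells with Mecom. Erythroid-primed cells had 120 and 122, and cells with Mcpt8 or Cpa3 (mast cell genes) 118.5 and 115, so the tag hardly differed between these classes. The CD48 tag had a median of 546 in WT and 643 in IkBKO Dntt-high cells, and of 412 and 527 in cells with Mecom. Rag1 and Ccr9 were both counted in 10 of 748 and 35 of 962 WT Dntt-high cells and in 5 of 264 and 4 of 527 IkBKO ones.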
